A study of Mus musculus with 8 samples.

Results

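Haematopoietic stem cells (HSCs) of normal mouse bone marrow were compared with the KLS- progenitors of the same tissue by RNA sequencing. The comparison used the 3 normal stem libraries and the 1 normal KLS- library among the 8 libraries of the study, and all 11748 of 20207 genes whose RPKM (reads per kilobase of transcript, scaled to the library's mapped reads) summed to more than 1 over these 4 libraries. The study profiled stem cells and progenitors from healthy and chronic myeloid leukaemia (CML)-affected mice to find genes raised in leukaemic stem cells. Long-term (LT) HSCs were sorted as CD150+CD48-CD135-KLS+ cells and short-term (ST) HSCs as CD150-CD48-CD135-KLS+ cells, where KLS+ stands for c-Kit+, lineage marker-negative and Sca-1+ cells. The KLS- progenitors were c-Kit+ and lineage marker-negative but Sca-1-.

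The stem libraries were 1 of LT-HSCs from mice of 2 months (replicate 1), 1 of LT-HSCs from mice of 6 months (replicate 2) and 1 of ST-HSCs at 2 months, and the KLS- cells came from mice of 2 months. The labels give C57BL/6 as the strain and a healthy diagnosis for the 4 libraries. The methods describe instead littermates of the CML mice on the FVB/N background that carried the Tal1-tTA transgene, in which Tal1 regulatory sequence drives the tetracycline transactivator. These littermates were of both sexes, younger than 6 months and had been taken off doxycycline, as were the CML mice, which carry TRE-BCR-ABL1 in addition. Which of these mice gave each library could not be told from the labels, and the number of animals behind each library is not given in the sources used here. The p-values below therefore measure the spread between these stem libraries, and the KLS- library, which has no replicate, was assumed to vary as they do.

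HSCs are rare, mostly quiescent cells that renew themselves and give rise to every blood lineage. ST-HSCs repopulate an irradiated host for a shorter time than LT-HSCs. The KLS- compartment holds the cycling progenitors committed to the myeloid lineages, among them common myeloid, granulocyte-monocyte and megakaryocyte-erythroid progenitors, and the measured level is an average over them. In such bulk samples, fewer cells of a type and less RNA per cell cannot be told apart.

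The 4 libraries had an estimated depth of 18.8 to 23.9 M reads. The stem libraries correlated with each other at Pearson r of 0.953 to 0.979 on log2(RPKM + 1), and with the KLS- library at 0.904 to 0.927, over the 11748 genes, which are not independent replicates. In the KLS- library 6275 genes were listed at 0, against 4698 to 5413 in the stem libraries. The LT-HSC library of 6 months stood apart from the other stem libraries in some transcripts. Over all genes it correlated at 0.979 with LT-HSCs of 2 months, the closest stem pair, and at 0.953 with ST-HSCs, the least close. It held a summed 3981 RPKM of 8 late neutrophil genes, against 497 in LT-HSCs of 2 months, 13.3 in ST-HSCs and 125 in KLS- cells. These 8 genes were set apart after the values were seen, so their sum is a description and not a test. It also had 56.3 RPKM of the globin transcript Hbb-b1, against 2.21 to 6.25 in the others, and was the only 1 of the 4 with a Y-linked Ddx3y transcript above 0.02 RPKM (31.0), with Xist at 0.15 against 13.6 to 27.3. Below, values of the stem libraries are given in the order LT-HSC of 2 months, LT-HSC of 6 months and ST-HSC.

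The transcripts of the sorting antigens were examined first. Lineage markers, c-Kit and Sca-1 set both gates, so their differences are a check of the labels and not a finding. CD150, CD48 and CD135 were gated only within KLS+ cells, so the sort did not set their levels in KLS- cells. Ly6a, which encodes Sca-1, was at 84.8, 96.1 and 152 RPKM in the stem libraries and at 8.16 in KLS- cells (a log2 difference of 3.57 with a standard error of 0.36, adjusted p = 0.0123 by the limma fit described below). Slamf1, which encodes CD150, was at 14.3 and 10.7 RPKM in the LT-HSC libraries but at 1.11 in ST-HSCs, next to the 0.955 of KLS- cells. Cd48 was at 10.4, 5.17 and 41.8 RPKM against 174 in KLS- cells (a log2 difference of -3.60, standard error 1.01, adjusted p = 0.0916). The CD135 gene Flt3 was at 3.95 and 2.52 RPKM in LT-HSCs, 61.6 in ST-HSCs and 10.02 in KLS- cells, so that the 2 kinds of stem cell lay on either side of the progenitors. Kit, part of both gates, was at 164, 121 and 213 RPKM against 78.4 (adjusted p = 0.116). Of 11 lineage antigen genes in the files, 3 did not reach the 1 RPKM filter and 0 of the other 8 passed in limma (1 had an unadjusted p under 0.05). The library means ordered as the labels say for Sca-1 and CD150, whereas ST-HSCs, sorted as negative for CD48 and CD135, held the transcripts of both. Of 12 markers of stroma and endothelium, 6 stayed below the filter, among them Cdh5, Cxcl12 and Col1a1, and 1 of the other 6 passed, Emcn (15.4, 17.5 and 24.1 against 1.62 RPKM), a sialomucin that HSCs carry as well.

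Among 11748 genes, 775 passed an adjusted p of 0.05 (limma with an intensity trend and Benjamini-Hochberg adjustment). Of these, 477 (4.06% of the genes tested) were higher and 298 (2.54%) lower in the stem libraries, and in all 775 the 3 stem libraries lay on 1 side of the KLS- library. The median size of these differences was 1.65 on the log2 scale, and the median over all genes was 0.07. A rule of size that needs no estimate of spread, a difference of at least 2-fold on the RPKM + 1 scale in each of the 3 stem libraries, named 973 genes, 626 higher (5.33%) and 347 lower (2.95%), and 721 of the 775 were among them. Of the 477 higher genes 211 averaged at least 1 RPKM in stem cells and less than 1 in KLS- cells, as did 1064 of all 11748 genes. The reverse pattern was found in 105 of the 298 lower genes and in 259 of all genes. A call needs a difference that is large beside the spread, which makes both patterns likelier. The number of calls rested on the spread among 3 libraries. Without the LT-HSC library of 6 months 0 genes passed in limma (3103 had an unadjusted p under 0.05), without that of 2 months 239 passed and without ST-HSCs 1559 passed, whereas the rule of size gave 1096, 1246 and 1342 genes. Of the 775 calls 61.5% were higher in stem cells, against 71.3% of 1091 with a pseudocount of 0.1 and 73.6% of 890 with upper-quartile scaling, which raised the median over all genes to 0.22.

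**Figure D1:**
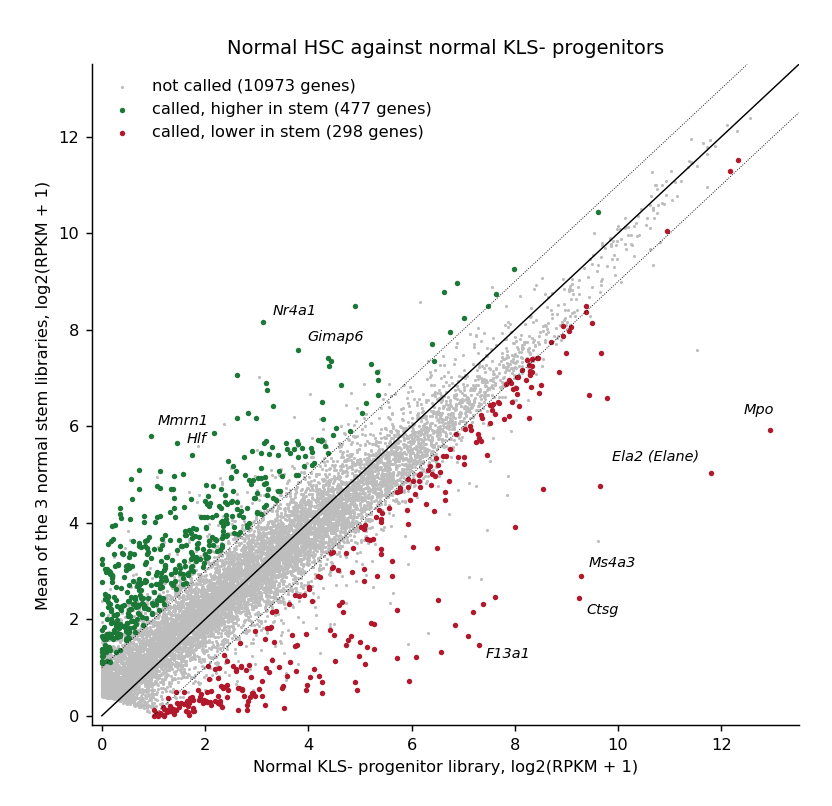
Each point is 1 of 11748 genes, with log2(RPKM + 1) of the KLS- library on the horizontal axis and the mean of the 3 stem libraries on the vertical axis. Green marks the 477 genes called higher in stem cells and red the 298 called lower, the solid line is equality and the dotted lines are 1 log2 unit away. The red points reach higher levels and lie farther from the line than the green ones, with Mpo at the far right.

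Among the largest differences in favour of the stem cells, in called genes that reached a mean of 5 RPKM, were those of Nr4a1, Mmrn1, Esam, F11r, Hlf, Procr, Iigp1, Upp1, Mecom, Trpc6 and Gimap6. Nr4a1, an orphan nuclear receptor linked to HSC quiescence, was at 252, 368 and 251 RPKM against 7.76 in KLS- cells, 37.4-fold on average (a log2 difference of 5.03, standard error 0.28, limma adjusted p = 0.00802). The groups were far apart in each of these 11 genes, with the lowest stem library at least 3.43 log2 units above KLS- cells in the case of Procr and 4.85 in that of Nr4a1. Procr, the endothelial protein C receptor used to isolate HSCs, was at 16.9, 33.8 and 27.4 RPKM against 0.657. Esam and F11r, both tight junction adhesion molecules, were at 36.4, 40.4 and 24.6 RPKM and at 29.2, 32.7 and 25.5 RPKM, against 0.655 and 0.477 in KLS- cells. Mmrn1, a platelet and endothelial multimerin, varied more among the stem libraries, from 29.0 RPKM in ST-HSCs to 81.9 and 68.6 in LT-HSCs, against 0.927. The transcription factors Hlf (33.1, 57.7 and 62.6 against 1.75 RPKM) and Mecom (22.7, 25.5 and 17.3 against 0.502), both needed for HSC maintenance, stood with them. Upp1, a uridine phosphorylase, Trpc6, a cation channel, Gimap6, a GTPase of lymphocytes and HSCs, and Iigp1, an interferon-inducible GTPase, averaged 18.9, 17.2, 193 and 33.01 RPKM in stem cells, 68.6-fold, 63.1-fold, 14.9-fold and 27.7-fold above KLS- cells. The KLS- values of these 11 genes rest on an estimated 11 (Upp1) to 917 (Gimap6) reads. In the mm9 genome, Nr4a1 lies on chromosome 15 from 101097277 to 101105223, Procr on chromosome 2 from 155576853 to 155581207, Hlf on chromosome 11 from 90197849 to 90252231 and Mecom on chromosome 3 from 29850221 to 30446930.

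**Figure D2:**
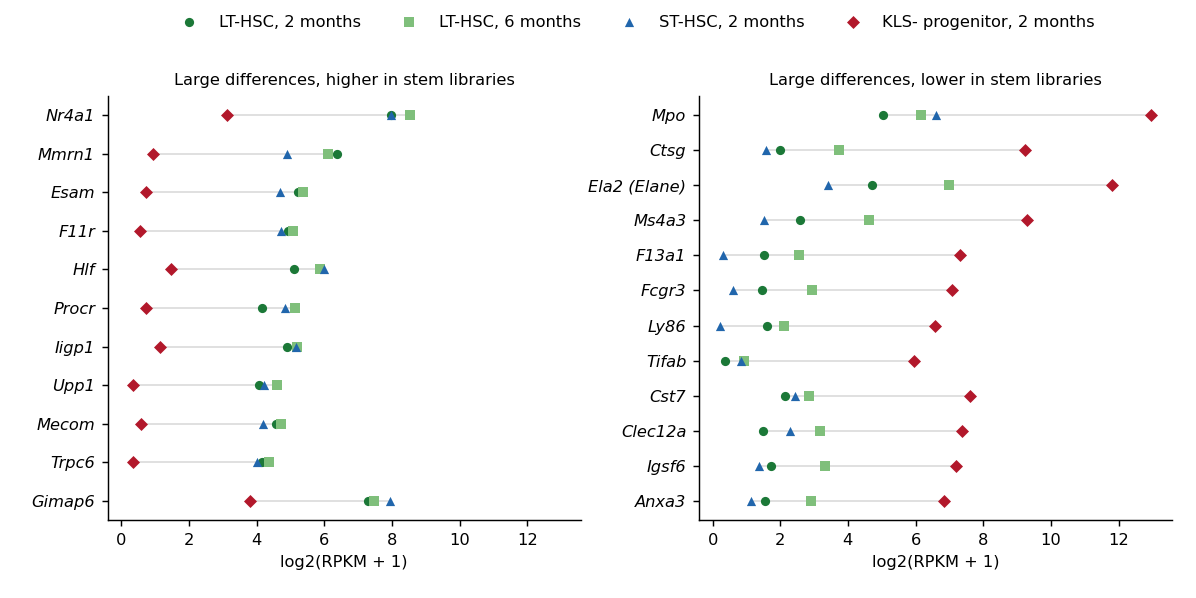
The 11 genes named above (left) and the 12 with the largest called difference in favour of KLS- cells (right), with log2(RPKM + 1) on the horizontal axis and 1 symbol for each of the 4 libraries. On the left the KLS- diamond lies 3.43 or more log2 units below the lowest stem library, and on the right it lies above all stem libraries, with the LT-HSC library of 6 months the stem library nearest to it in most genes.

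Genes known for HSCs were largely on the side of the stem libraries. For this list and those below, the shares of all genes called were 4.06% higher and 2.54% lower. Of 35 tested surface and marker genes of HSCs, 14 were called higher and 0 lower, with a median log2 fold change of 1.61 against 0.07 over all genes, and in 31 all 3 stem libraries lay above KLS- cells. Beside those named above, Pdzk1ip1 (126, 172 and 77.0 against 8.07 RPKM), Krt18 (41.1, 52.1 and 40.1 against 6.56) and Gpr56, an adhesion receptor (539, 438 and 540 against 117), were called. Others were high in LT-HSCs without passing, since ST-HSCs did not share them. Vwf, the von Willebrand factor that marks platelet-biased HSCs, was at 8.75 and 8.12 RPKM in LT-HSCs and at 0.326 in ST-HSCs, below the 0.734 of KLS- cells (adjusted p = 0.42 from limma). Sult1a1 was at 12.9, 33.5 and 1.86 RPKM against 0.360, a difference in 1 direction with a wide spread (3.03, standard error 1.28, adjusted p = 0.186). Ly6e, a member of the Sca-1 family, was the gene of the list with the largest difference the other way, at 202, 171 and 260 RPKM against 446 (-1.10, adjusted p = 0.0699).

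Of 39 transcription factors of HSCs, 13 were called higher and 0 lower, with a median of 1.36, and in 38 the 3 stem libraries all lay above KLS- cells. Meis1, a homeobox partner of the Hox factors, was at 166, 139 and 152 RPKM against 20.01 (2.86, standard error 0.20, adjusted p = 0.00863 from limma). Hoxa10 (9.01, 10.7 and 8.67 against 0.457 RPKM) and Hoxa5 (3.98, 5.49 and 4.11 against 0.473) were called, whereas Hoxa9 (5.38, 5.51 and 10.3 against 1.67) and Hoxb4 (1.66, 3.19 and 1.81 against 0.544) had adjusted p of 0.078 and 0.112. Thus the Hox genes were higher in each stem library, but not all by more than the spread. Gata3 (6.55, 8.74 and 6.77 against 0.445 RPKM), Mycn (8.63, 8.63 and 6.00 against 0.494) and Nkx2-3 (3.75, 8.27 and 6.197 against 0.140) were among the other calls, and Tsc22d1 had the highest level of the called factors, at 138, 185 and 194 RPKM against 19.8. General haematopoietic factors were closer to the progenitors. Runx1 was at 12.6, 13.3 and 8.72 RPKM against 6.30 (0.76, adjusted p = 0.167) and Tal1 at 6.06, 8.70 and 4.58 against 2.69 (0.97, adjusted p = 0.144). Gata2 (34.1, 49.4 and 15.6 against 9.28) was lower in ST-HSCs than in LT-HSCs and did not pass.

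The transcripts of myeloid granules showed the largest differences of the whole comparison, in favour of the KLS- cells. Mpo, which encodes myeloperoxidase, was at 31.8, 69.9 and 95.5 RPKM in the stem libraries and at 7891 in KLS- cells, 120-fold above the stem mean of 65.7 ± 32.1 (SD, n = 3) (a log2 difference of -7.02, standard error 0.58, limma adjusted p = 0.00969). Ctsg (cathepsin G) was at 3.002, 12.4 and 2.02 RPKM against 606 (-6.80, standard error 0.82, adjusted p = 0.0174). Ela2, the older symbol of neutrophil elastase (Elane), was at 25.2, 125 and 9.72 RPKM against 3582 (-6.77, standard error 1.26, adjusted p = 0.0431), and Ms4a3, a membrane protein of granulocyte-monocyte progenitors, at 5.003, 23.6 and 1.84 against 622. In Ctsg, Ela2 and Ms4a3 the LT-HSC library of 6 months was the highest of the stem libraries, as it was for the late neutrophil genes, whereas in Mpo ST-HSCs were the highest. The part of late neutrophil transcripts in these levels was not tested. Tifab (0.300, 0.890 and 0.796 against 60.8 RPKM), the protease inhibitor Cst7 (3.38, 6.204 and 4.41 against 194), the coagulation factor subunit F13a1 (1.90, 4.87 and 0.248 against 156) and Fcgr3, the low-affinity Fc receptor CD16 that marks granulocyte-monocyte progenitors (1.74, 6.62 and 0.511 against 135), followed, with Ly86, Clec12a, Igsf6 and Anxa3. Among the 12 genes, the lowest stem value rests on an estimated 3 reads (Ly86), so that ratios of the lowest genes are imprecise. In mm9, Mpo lies on chromosome 11 from 87607083 to 87617915, Ctsg on chromosome 14 from 56718718 to 56721411 and Ms4a3 on chromosome 19 from 11703987 to 11715341.

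**Figure D3:**
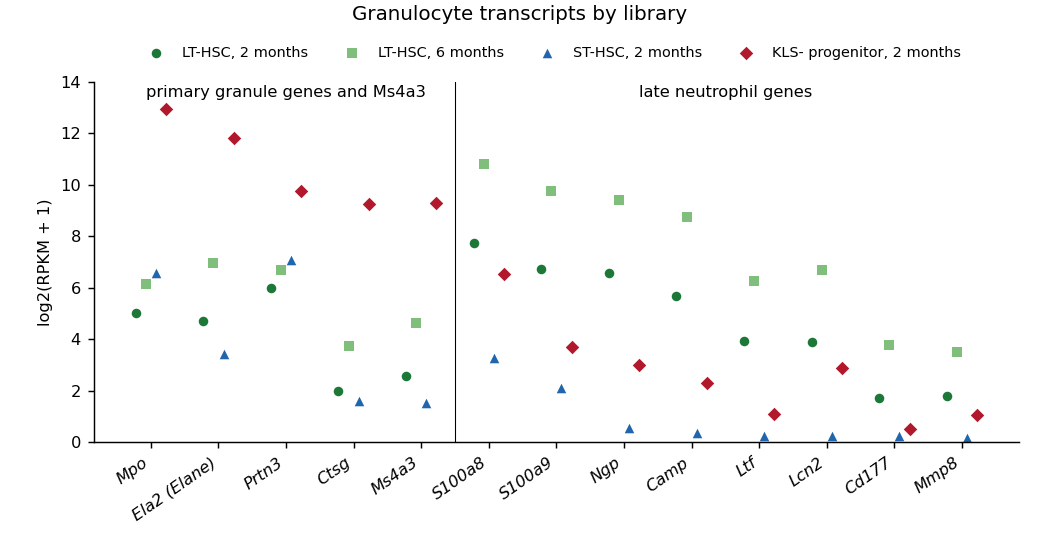
Level of 4 primary granule genes and Ms4a3 (left) and 8 late neutrophil genes (right) in each of the 4 libraries, as log2(RPKM + 1), with 1 symbol per library. The KLS- library is the highest for the 5 genes on the left, with Mpo at 7891 RPKM, and the LT-HSC library of 6 months is the highest for the late genes, with S100a8 at 1802 RPKM.

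Of 39 tested granulocyte and monocyte genes, 14 were called lower and 0 higher in the stem libraries, with a median of -1.63 against 0.07 over all genes. Receptors and regulators of the lineage were among the calls, such as Csf1r, the receptor for macrophage colony-stimulating factor (0.323, 0.454 and 1.21 against 18.2 RPKM, adjusted p = 0.0108 from limma) and the transcription factor Irf8 (0.904, 2.06 and 2.07 against 37.7, adjusted p = 0.0104). Cebpa, the factor that starts granulocyte commitment, was at 0.342 and 0.317 RPKM in LT-HSCs, 2.26 in ST-HSCs and 4.54 in KLS- cells (adjusted p = 0.13), so that ST-HSCs lay between. S100a8, a late neutrophil gene, was at 214, 1802 and 8.55 RPKM against 92.6, and Camp, a cathelicidin of secondary granules, at 49.9, 432 and 0.267 against 3.87, so that the groups overlapped and their order followed the single libraries. Lyz2 (185, 315 and 161 against 117 RPKM) was in each stem library above KLS- cells without passing (0.85, adjusted p = 0.214). Calr, a chaperone of the endoplasmic reticulum, was at 195, 158 and 194 RPKM against 814 (adjusted p = 0.0107).

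The promoters of the 4 genes with the largest differences in favour of KLS- cells are shown with those of Hlf and Procr, as examples from both directions. The sequences are from RefSeq (build GRCm38.p6), 250 bases before to 50 after the first-listed start, 5′ to 3′ on the strand of the gene. They cover chr11:87793534-87793833 (Mpo, plus strand), chr10:79886062-79886361 (Ela2, plus), chr14:56102525-56102824 (Ctsg, minus), chr19:11640802-11641101 (Ms4a3, minus), chr11:90390868-90391167 (Hlf, minus) and chr2:155750967-155751266 (Procr, plus). Capitals mark GAGGAA, a core bound by the ETS factor PU.1, and TTGCNNAA, a core bound by C/EBP factors, each searched on both strands; in Ms4a3 a match of each lie side by side.
Mpo: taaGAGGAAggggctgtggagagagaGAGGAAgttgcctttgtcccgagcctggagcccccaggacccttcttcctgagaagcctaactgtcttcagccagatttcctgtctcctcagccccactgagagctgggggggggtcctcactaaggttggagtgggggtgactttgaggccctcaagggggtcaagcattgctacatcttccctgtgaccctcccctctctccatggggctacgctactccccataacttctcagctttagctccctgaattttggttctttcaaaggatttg
Ela2 (Elane): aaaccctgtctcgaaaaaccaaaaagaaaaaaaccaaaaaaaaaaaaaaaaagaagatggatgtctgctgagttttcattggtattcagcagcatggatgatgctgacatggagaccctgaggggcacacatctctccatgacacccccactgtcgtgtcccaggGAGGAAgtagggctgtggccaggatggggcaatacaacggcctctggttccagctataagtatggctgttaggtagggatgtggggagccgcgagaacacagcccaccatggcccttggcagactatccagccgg
Ctsg: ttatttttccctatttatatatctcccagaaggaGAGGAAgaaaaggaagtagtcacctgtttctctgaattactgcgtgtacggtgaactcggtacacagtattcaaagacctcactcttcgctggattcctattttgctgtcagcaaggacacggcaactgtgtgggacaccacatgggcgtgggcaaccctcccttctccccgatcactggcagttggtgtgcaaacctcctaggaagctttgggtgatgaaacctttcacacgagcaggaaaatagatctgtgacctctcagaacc
Ms4a3: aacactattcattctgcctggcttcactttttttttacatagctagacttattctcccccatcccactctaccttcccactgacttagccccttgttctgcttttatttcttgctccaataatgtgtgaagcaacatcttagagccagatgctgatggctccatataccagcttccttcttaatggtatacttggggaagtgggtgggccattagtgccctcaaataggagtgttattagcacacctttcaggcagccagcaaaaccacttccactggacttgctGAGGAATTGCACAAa
Hlf: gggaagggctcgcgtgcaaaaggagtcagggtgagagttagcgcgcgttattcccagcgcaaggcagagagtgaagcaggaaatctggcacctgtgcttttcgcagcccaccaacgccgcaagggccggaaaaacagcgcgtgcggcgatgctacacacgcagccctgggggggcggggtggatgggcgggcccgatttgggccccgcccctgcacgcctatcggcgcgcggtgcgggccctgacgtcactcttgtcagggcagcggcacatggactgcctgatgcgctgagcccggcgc
Procr: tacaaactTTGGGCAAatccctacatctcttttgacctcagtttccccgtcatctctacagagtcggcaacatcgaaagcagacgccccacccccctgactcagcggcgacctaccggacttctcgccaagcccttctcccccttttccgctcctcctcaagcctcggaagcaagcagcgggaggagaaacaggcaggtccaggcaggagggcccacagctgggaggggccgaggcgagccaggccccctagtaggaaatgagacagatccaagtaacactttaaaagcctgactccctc
The promoters of Mpo, Ela2, Ctsg and Ms4a3 held GAGGAA, 2 times in Mpo, and Hlf held neither motif, while Procr held the C/EBP core 1 time. Of the 39 granulocyte and monocyte genes, 32 had a promoter in the table, and 18 of these (56.2%) held GAGGAA and 10 (31.2%) held TTGCNNAA, against 28.3% and 10.8% of the 27025 promoters in the table. For the genes called in either direction and for the HSC and erythroid lists the check was void, since fewer than 80% of their genes had a promoter in the table. In those found, GAGGAA was in 42.3% for HSC surface and marker genes, 33.3% for genes called higher in stem cells and 25.1% for genes called lower. A match is a description of the letters and not a bound site.

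Erythroid genes made the other large block of the progenitors. Of 26 tested genes, 8 were called lower in stem cells and 1 higher, with a median of -1.15. Car1, a carbonic anhydrase of early erythroid cells, was at 30.6, 26.7 and 21.6 RPKM against 804 in KLS- cells (-4.90, standard error 0.25, adjusted p = 0.00802 from limma). The blood group proteins Ermap (1.27, 1.77 and 1.09 against 30.7), Rhd (1.13, 2.91 and 1.30 against 34.1) and Kel (0.757, 0.699 and 0.0423 against 7.28) and the transferrin receptor Tfrc (7.55, 6.38 and 6.76 against 27.7) were called in the same direction. The gene called the other way was Car2, at 1494, 1405 and 1270 RPKM against 785 (0.82, adjusted p = 0.0424), so that the 2 carbonic anhydrases differed in opposite directions. The erythroid factors had wider spreads. Gata1 was at 32.8, 12.9 and 2.53 RPKM against 38.1 (adjusted p = 0.363), and Klf1 at 1.90, 0.737 and 0.486 against 6.34 (adjusted p = 0.0552), with LT-HSCs of 2 months the nearest to the progenitors in both. Late erythroid transcripts were highest in the LT-HSC library of 6 months, which had 16.1 RPKM of Alas2 against 0.323 to 2.13 in the other 3 libraries. Hba-a1 and Hba-a2 were listed at 0 in every library. In haem synthesis 1 of 17 genes was called lower, beside 2.54% of all genes. It was the housekeeping first enzyme Alas1, at 12.4, 13.51 and 16.4 RPKM against 255 in KLS- cells.

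Of 11 tested basophil and mast cell genes, 7 were called lower in stem cells and 0 higher, the list with the lowest median (-2.36). Hdc, the enzyme that makes histamine, was at 1.20, 2.90 and 0.403 RPKM against 51.5 (-4.52, adjusted p = 0.0186 from limma), Cpa3, a mast cell carboxypeptidase, at 2.47, 3.51 and 5.05 against 51.4, and Ms4a2, a chain of the IgE receptor, at 0.0993, 0.0415 and 0.211 against 10.5. All 3 were separated from the stem libraries by more than 10 times. The other 5 listed genes did not reach the filter, with Tpsab1, Tpsb2 and Mcpt4 at or below 0.1 RPKM in each library.

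Of 26 tested megakaryocyte genes, 5 were called higher and 0 lower (median 1.29), among them the thrombin receptor F2rl3 (13.6, 13.54 and 14.2 against 2.41 RPKM), the ATP receptor P2rx1 (16.6, 12.7 and 11.1 against 4.07) and Ppbp, a platelet chemokine (4.04, 4.73 and 2.22 against 0.137). Mmrn1, named above, was called too, so that the list shares it with the HSC genes. Several platelet genes were high in LT-HSCs and not in ST-HSCs. Pf4, platelet factor 4, was at 326 and 356 RPKM in LT-HSCs, 16.1 in ST-HSCs and 77.6 in KLS- cells. Sdpr was at 29.0 and 49.1 RPKM in LT-HSCs, 0.314 in ST-HSCs and 3.39 in KLS- cells. Both were higher in KLS- cells than in ST-HSCs, and neither passed (with adjusted p of 0.818 and 0.636 from limma). The list's median difference from KLS- cells was 1.75 and 1.59 for the LT-HSC libraries and 0.17 for ST-HSCs.

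Lymphoid priming genes had no common direction. Of 20 tested genes, 1 was called higher, Ltb, a lymphotoxin chain (4.81, 3.10 and 7.14 against 0.0451 RPKM), and 0 lower (median -0.01). The share called higher was near the 4.06% of all genes. Dntt, the terminal transferase of early lymphoid cells, was at 0.218 and 0.465 RPKM in LT-HSCs, 25.8 in ST-HSCs and 7.25 in KLS- cells, the same order as Flt3.

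Of the cell cycle genes in 2 lists, 3 were called, each lower in stem cells, as were 2.54% of all genes. All 3 stem libraries lay below KLS- cells in 3924 of all 11748 genes. Of 38 mitosis genes 0 were called in either direction by limma (8 had an unadjusted p under 0.05, and Cks2 alone passed the rule of size), although in 32 the 3 stem libraries all lay below KLS- cells and the median was -1.04. The stem libraries differed from each other, with a median difference from KLS- cells of -0.49 in LT-HSCs of 2 months, -0.90 in LT-HSCs of 6 months and -1.76 in ST-HSCs. Ccnb1, a cyclin of mitosis, was at 47.2, 31.4 and 18.8 RPKM against 91.5 (-1.56, standard error 0.49, adjusted p = 0.112), and Mki67 at 28.4, 25.3 and 9.204 against 29.9. Thus ST-HSCs were the stem library farthest from the progenitors in these genes, and LT-HSCs of 2 months the nearest. Of 38 DNA replication genes, 3 were called lower and 0 higher (median -0.81), the cyclins Ccne1 (1.31, 1.05 and 0.762 against 5.45 RPKM) and Ccne2 (5.84, 4.002 and 3.13 against 15.7) and the helicase subunit Gins1 (15.3, 13.1 and 12.7 against 32.9). Rrm2, a subunit of ribonucleotide reductase, had a larger difference with a wider spread, at 63.5, 36.7 and 23.7 RPKM against 184 (-2.24, adjusted p = 0.0647).

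Promoters of the mitosis list are shown for Ccnb2 (47.9, 37.4 and 18.3 against 71.0 RPKM) and the mitotic kinase Aurka (15.1, 9.58 and 5.67 against 29.6), neither of which passed the test, because most promoters of this list held the same motifs. The windows are chr9:70421505-70421804 and chr2:172370521-172370820, both on the minus strand (RefSeq, GRCm38.p6). Capitals mark CCAAT, a box bound by the factor NF-Y, and TTTGAA, the cell cycle homology region, searched on both strands.
Ccnb2: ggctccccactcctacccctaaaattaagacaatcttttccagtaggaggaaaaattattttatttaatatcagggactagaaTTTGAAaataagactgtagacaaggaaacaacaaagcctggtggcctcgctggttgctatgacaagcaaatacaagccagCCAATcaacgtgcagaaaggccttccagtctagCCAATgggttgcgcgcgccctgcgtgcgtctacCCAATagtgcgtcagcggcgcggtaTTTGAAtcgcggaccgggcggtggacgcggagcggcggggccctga
Aurka: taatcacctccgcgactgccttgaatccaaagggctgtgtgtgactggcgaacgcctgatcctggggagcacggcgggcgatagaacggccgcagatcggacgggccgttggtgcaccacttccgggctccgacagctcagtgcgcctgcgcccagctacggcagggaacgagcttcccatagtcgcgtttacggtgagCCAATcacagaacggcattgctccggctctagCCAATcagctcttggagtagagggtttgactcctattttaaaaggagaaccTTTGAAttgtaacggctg
Of 33 mitosis genes with a promoter in the table, 27 (81.8%) held CCAAT and 26 (78.8%) held TTTGAA, against 37.9% and 18.1% of all 27025 promoters. No measure of binding is part of these data.

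Genes of a mixed list of quiescence and imprinted genes, which also holds the D cyclins, were mostly higher in each stem library. The share called was near the 4.06% of all genes called higher. All 3 stem libraries lay above KLS- cells in 4935 of all 11748 genes. Of 17 tested genes 1 was called higher, the imprinted gene Ndn, at 7.89, 11.8 and 5.09 RPKM and listed at 0 in KLS- cells (adjusted p = 0.022 from limma), and 15 had all 3 stem libraries above KLS- cells (median 1.04). Cdkn1c, the imprinted inhibitor p57, was also listed at 0 in KLS- cells and was at 4.04, 8.99 and 1.82 RPKM in stem cells, but its spread was wider (adjusted p = 0.0914). Cdkn1b, the inhibitor p27, was at 14.6, 14.9 and 15.9 RPKM against 7.31 (0.96, adjusted p = 0.0632). The single stem libraries agreed closely in it, and the difference was smaller than 2-fold on the RPKM + 1 scale.

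Of 28 immediate early genes 6 were called higher in the stem libraries and 0 lower (median 1.09), beside 4.06% and 2.54% of all genes. Nr4a1 led them. Klf6 (154, 176 and 160 against 85.8 RPKM), Klf10 (54.2, 58.7 and 43.4 against 17.2), Ier2 (40.4, 54.3 and 37.2 against 15.8), Zfp36l1 and the cytokine feedback inhibitor Socs3 (4.06, 5.45 and 8.30 against 0.686) were the other calls. Fos, the most abundant of them, was at 382, 574 and 702 RPKM against 367 (0.55, adjusted p = 0.333 from limma), and Egr1 at 81.6, 199 and 64.1 against 15.5 (2.64, adjusted p = 0.0662). Fos and Nr4a1 thus differed in how far the groups lay apart, with KLS- cells close to LT-HSCs of 2 months in Fos. Immediate early transcripts also respond to handling and sorting of cells, whose part in these levels was not tested.

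Interferon and antigen presentation genes were among the stem calls, which took in 4.06% of all genes. Of 42 interferon-response genes 6 were called higher and 0 lower (median 0.79), namely Iigp1, Gbp2 (28.7, 31.4 and 38.7 against 5.05 RPKM), Ifitm1 (409, 426 and 486 against 97.5), Irf1 (71.6, 68.3 and 71.4 against 18.4), Rsad2 and Ifitm3 (627, 585 and 631 against 252). Their stem levels were close to one another, with Irf1 at 68.3 to 71.6 RPKM. Other members of the list, such as Oas2 (6.33, 0.618 and 12.2 against 1.21) and Usp18 (17.9, 8.16 and 30.1 against 10.1), were lowest in the LT-HSC library of 6 months and overlapped with KLS- cells. Ifitm2, a neighbour of Ifitm1 and Ifitm3, was at 698 to 717 RPKM in the stem libraries and 705 in KLS- cells (0.01, standard error 0.14). Of 16 genes of MHC class I and peptide loading 5 were called higher and 0 lower (median 0.62), including H2-K1 (404, 439 and 437 against 199 RPKM), H2-T23 (196, 223 and 207 against 83.5), the class I transactivator Nlrc5 (5.82, 5.62 and 5.53 against 1.96) and H2-Q6 and H2-Q7, near-identical genes whose reads the counting may have split. Of 10 MHC class II genes 0 were called by limma (5 had an unadjusted p under 0.05), but 4 passed the rule of size, led by the invariant chain Cd74 (98.7, 330 and 64.8 against 7.27 RPKM, adjusted p = 0.0575) and H2-Aa (31.3, 131 and 25.8 against 2.63).

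Lists of growth and energy supply were set beside the 4.06% of all genes called higher and the 2.54% called lower. The respiratory chain and glycolysis lists exceeded the share called lower. Of 40 ribosome biogenesis genes 1 was called lower, a share near the 2.54% of all genes. It was the nucleophosmin gene Npm1 (1164, 979 and 1061 against 1973 RPKM, log2 fold change -0.89, adjusted p = 0.036 from limma). In 37 of the 40 all stem libraries lay below KLS- cells, as in 3924 of all 11748 genes. The median of the list was -0.66, which was -0.45 after quantile normalization. Of 41 genes of the respiratory chain and tricarboxylic acid cycle 4 were called lower, Cycs, Ndufa9, Atp5o and Sdhd, and in 37 all stem libraries lay below (median -0.77, which was -0.35 after quantile normalization). Cycs, which encodes cytochrome c, was at 84.3, 59.6 and 67.4 RPKM against 221. Glycolysis genes were divided, with 3 called lower, 2 called higher and a median of 0.02, which was -0.63 among the genes with a mean of at least 1 RPKM. Pgam1 (37.8, 38.0 and 44.5 against 129 RPKM), Gapdh (157, 143 and 161 against 307) and Pgk1 (119, 109 and 120 against 225) were lower in stem cells, and the glucose transporter Slc2a3 (44.8, 33.7 and 42.3 against 5.71) and Aldoc, an aldolase (7.10, 9.10 and 10.4 against 0.435), were higher. Aldoa, the main aldolase of these cells, was at 266, 240 and 362 against 518 (adjusted p = 0.107). Of 33 antioxidant genes 2 were called higher, Gsta4 and Gpx7, and 1 lower, Gstm1 (74.6, 125 and 116 against 352 RPKM), with a median of -0.40 that was 0.05 after quantile normalization.

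Receptors and niche genes held a few strong differences among many small ones. Of all genes, 4.06% were called higher and 2.54% lower. All 3 stem libraries lay above KLS- cells in 4935 of all 11748 genes. Of 34 cytokine and growth factor receptors, 1 was called higher and 4 lower. Csf1r, the chemokine receptor Ccr2 (0.936, 3.09 and 1.72 against 25.6 RPKM), Ifngr1 (41.2, 51.2 and 62.4 against 162) and Il1rl1 were those called lower (median -0.06). Of 30 TGF-beta pathway genes 3 were called higher and 0 lower (median 0.82), the receptors Tgfbr2 (3.97, 4.18 and 5.18 against 1.27 RPKM) and Eng (9.52, 6.90 and 10.2 against 2.55) and the SMAD corepressor Skil (31.7, 44.4 and 19.8 against 1.62), and in 27 all stem libraries lay above KLS- cells. Smad3 was at 6.55, 8.93 and 6.199 RPKM against 3.67 (0.80, adjusted p = 0.135 from limma). Of 30 niche adhesion genes 4 were called higher, Esam, Robo4, Jam3 (11.5, 10.01 and 6.95 against 0.307 RPKM) and the sphingosine 1-phosphate receptor S1pr1 (17.0, 19.7 and 30.1 against 2.31), and 1 lower, Vcam1. Cxcr4, the receptor for the niche chemokine Cxcl12, was at 3.87, 7.39 and 4.78 RPKM against 15.3 (-1.40, adjusted p = 0.0765).

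Of 19 ABC transporter genes Abcg3 alone was called (10.4, 9.45 and 12.6 against 0.0814 RPKM), a share near the 4.06% of all genes called higher (2.54% were called lower). Abcg2, which gives HSCs their dye efflux, was at 42.3, 37.04 and 33.4 against 18.8 (0.96, adjusted p = 0.07 from limma). Of 27 peptide and amino acid transporters 0 were called by limma (4 had an unadjusted p under 0.05, and the median was -0.05), and the peptide transporter Slc15a2 was at 2.64, 3.07 and 3.13 RPKM against 1.31 (0.77, adjusted p = 0.0967). Of 31 DNA methylation and Polycomb genes 1 was called higher, Phc1 (7.32, 6.39 and 8.72 against 2.32 RPKM, median of the list 0.28), again near the 4.06% of all genes. Of 17 BCL2 family genes the survival gene Mcl1 (48.2, 68.2 and 51.3 against 21.2 RPKM) was called higher, and the death genes Bax (18.2, 13.7 and 14.3 against 41.6) and Pmaip1, which encodes Noxa (0.604, 1.10 and 1.38 against 9.77), were called lower. The list's median was 0.01 and turned negative with a minimum mean of 1 RPKM and after quantile normalization. Bcl2 itself was at 8.38, 8.63 and 5.60 RPKM against 9.57 (-0.33, adjusted p = 0.5).

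**Figure D4:**
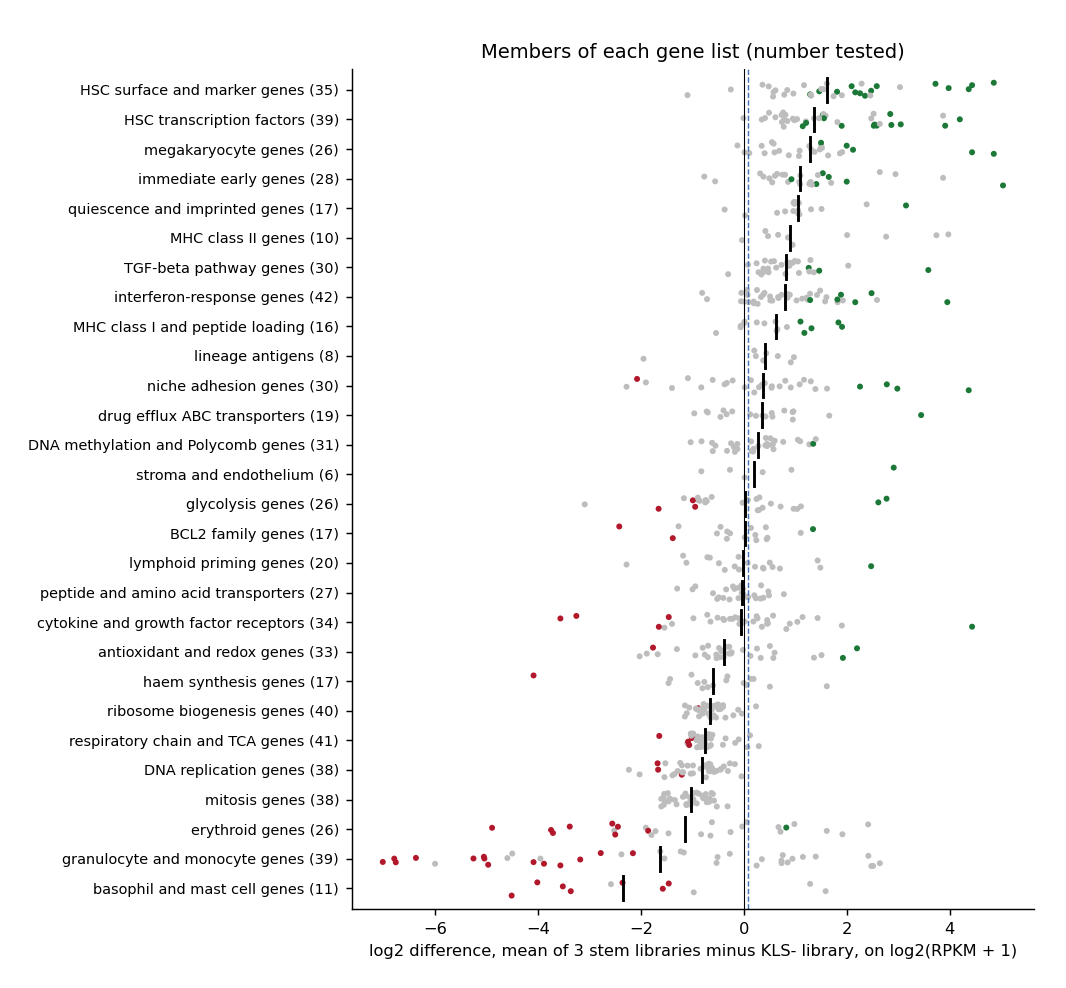
Each point is a tested member of a gene list, placed by its log2 fold change between the mean of the 3 stem libraries and the KLS- library, with calls in green (higher in stem cells) and red (lower) and the rest in grey. Black ticks are list medians, from -2.36 for basophil and mast cell genes to 1.61 for HSC surface and marker genes, and the dashed line is the median of all 11748 genes (0.07).

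The same contrast was available in 4 other libraries, those of CML-affected mice (2 LT and 1 ST stem libraries against 1 KLS- library), which share no library with the normal comparison. Of the 477 genes called higher in normal stem cells, 470 (98.5%) were also higher in all 3 CML stem libraries than in CML KLS- cells, against 41.8% of all genes tested. Of the 298 called lower, 289 (96.98%) were lower in all 3, against 36.6%. By the rule of size, CML stem libraries exceeded CML KLS- cells in 622 genes (5.29%) and were below them in 492 (4.19%). It shared 422 higher genes with the normal rule (67.4% of the normal and 67.8% of the CML genes) and 254 lower genes (73.2% and 51.6%). Nr4a1 was at 80.8, 126 and 81.8 RPKM in the CML stem libraries (LT replicates 1 and 2, then ST) against 3.29 in CML KLS- cells. Mpo was at 5.20, 1291 and 830 RPKM against 13120, so that its CML stem libraries differed from each other more than the normal ones did. CML LT replicate 2 also had 17.5 RPKM of the Y-linked Ddx3y, against 0 to 0.0625 in the other CML libraries. It held a summed 1035 RPKM of the 8 late neutrophil genes, against 237 in LT replicate 1, 414 in ST and 656 in KLS- cells. The part of these features in the CML contrast was not tested. In 9 called genes the mean CML difference had the opposite sign, 6 of those called higher, among them Car2 and Gsta4, and 3 of those called lower. In a fit of all 8 libraries, the difference between the CML and the normal contrast passed the test in 1 of 12561 genes (0.00796%), the receptor kinase gene Mst1r, and 324 genes had an unadjusted p under 0.05 in limma. A p that misses the threshold does not show that the contrasts are alike, since each had a single KLS- library.

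**Figure D5:**
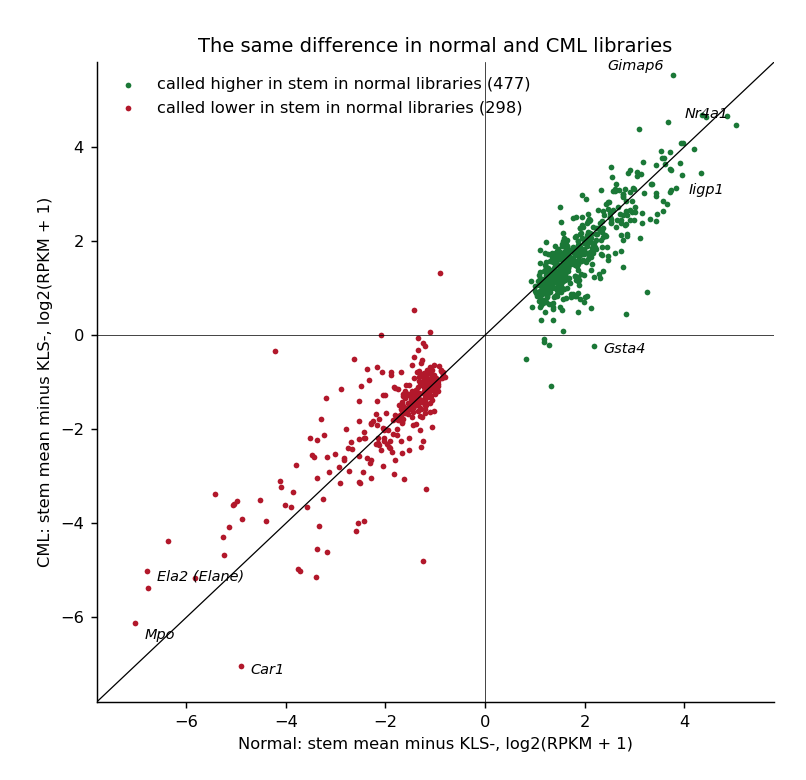
Each point is a gene called in the normal comparison, with its stem minus KLS- difference on log2(RPKM + 1) in normal libraries (horizontal) and CML libraries (vertical), the mean over 3 stem libraries each time. The line is equality. Of the 477 green genes 6 and of the 298 red genes 3 lie on the other side of 0 in CML, among them Gsta4 on the green side.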

How the data were processed

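Total RNA of sorted cells was made into libraries with the SMARTer Ultra Low Input kit (oligo-dT primed, not stated to keep strand) and sequenced as paired-end reads of 100 bases by the authors, who deposited 1 RPKM value per gene and library on mm9 (build 37). No read counts were used here. RPKM corrects for depth and length but not for library composition. The RPKM of all genes summed to 444650 in the KLS- library and to between 359006 and 372849 in the stem libraries. Depth was estimated from low RPKM values, of which 82.2% of 3244 lay on whole steps (tolerance 0.05 of a step), with GENCODE M1 exon lengths. Amplified reads share molecules of origin, so such estimates cover counting error alone.

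Values were analysed as log2(RPKM + 1), which understates the change of low genes, over genes with a total above 1 RPKM. The 3 stem libraries were compared with the KLS- library by limma 3.58.1 (R 4.3.3), using lmFit and a trended eBayes on 2 residual degrees of freedom. Genes with a Benjamini-Hochberg adjusted p under 0.05 were called. LT and ST libraries were pooled by the rule of the comparison, so that their difference counts as spread. Fold values are ratios of mean RPKM. CML libraries were compared by an interaction term over 8 libraries (4 means). On data simulated with 200 of 11748 genes changed, the fit recovered 61.7% of genes changed by 2 and 97.6% of those changed by 4 on the log2 scale, and 3.69% of its calls were unchanged genes. With 2000 genes changed, it recovered 93.6% and 99.6%, and 4.18% of its calls were unchanged. All 4 simulated libraries drew on the spread that the fit had estimated, and only genes with a stem mean above 2 on the log2 scale were changed. The simulated KLS- library thus varied as the fit assumes, so these rates cannot check that assumption.

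Named genes were the sorting and lineage antigens, the 12 largest called differences each way (not all are reported here) with a mean of at least 5 RPKM in the higher group and all stem libraries on 1 side, the largest and most abundant differences within 29 gene lists, and genes of the interaction. The comparison, the lists and the tests were chosen with earlier results of these data known. The motifs, the promoters shown and the set of late neutrophil genes were chosen after the values were seen. Of 816 list entries, 11 were not analysed here for want of a row. Alternatives covered pseudocount, filter, scaling, trend, larger fits and each library left out. Python 3.11.15 with pandas 2.3.3 was used for the rest.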

Additional observations from a re-analysis of the deposited data

Results flagged for a closer look

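The difference between the CML and the normal contrast was past the threshold for Mst1r, the receptor for macrophage-stimulating protein. The CML contrast (stem mean minus KLS- on log2(RPKM + 1)) was lower than the normal one by -2.44 (adjusted p = 0.0196, limma interaction with Benjamini-Hochberg adjustment). Mst1r was listed at 0 in the 4 normal libraries and was at 0, 0.0467 and 0.126 RPKM in the CML stem libraries and 4.72 in the single CML KLS- library, so that the value rests on that library. It passed again after quantile normalization (adjusted p = 0.00948), but not with a pseudocount of 0.1 (0.774), and not when any single normal stem library was left out (0.0744 to 0.196).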

How the results depend on the processing

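The count of calls moved most with the libraries that set the spread. With 1 stem library left out, limma called 0 to 1559 genes in all (0 to 971 higher and 0 to 588 lower in stem cells, against 775, 477 and 298), and the interaction called 0 in each case. With all 20207 genes offered to the fit (17160 with a value above 0), 60 genes passed (17 higher, 43 lower). A fit of 8 libraries with 4 means, in which the CML libraries add to the estimate of spread, called 1777 genes (1033 higher, 744 lower). A fit with 6 means called 2576 genes (1469 higher, 1107 lower). It gave LT and ST cells separate means and compared their average with KLS- cells, so that the difference between LT and ST cells no longer counted as spread. Its spread came from the normal and CML LT libraries. A pseudocount of 0.1 called 778 genes higher, and quantile normalization 316. By the rule of size, a pseudocount of 0.1 gave 1939 genes (1466 higher), and leaving out a library gave 394 to 528 genes lower, the most without LT-HSC replicate 1. The interaction called 0 genes with a pseudocount of 0.1 (315 at an unadjusted p under 0.05) and 0 with a mean of at least 1 RPKM (195), where Mst1r was not tested.

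Of 324 values of named genes under alternatives, 264 kept their direction and their side of the threshold, 55 no longer passed, 5 newly passed and 0 turned. Without LT-HSC replicate 2, all 25 named genes that had passed lost the threshold. Some list medians turned in sign. That of stroma and endothelium became -0.13 with a mean of at least 1 RPKM and ranged from -0.024 (without LT-HSC replicate 2) to 0.044 with a library left out, that of glycolysis genes -0.63 with that mean, that of BCL2 family genes -0.30 with that mean, -0.19 after quantile normalization and -0.14 to -0.084 with a library left out, and that of antioxidant genes 0.046 after quantile normalization. Medians that lay within 0.1 of 0 also crossed it by less than the spread between the library medians, those of glycolysis genes (-0.081 to -0.039 with a library left out), sorting markers (to 0.676 without LT-HSC replicate 2), lymphoid priming genes (to 0.258 without LT-HSC replicate 1), and cytokine receptors and peptide and amino acid transporters (to 0.126 and 0.074 with upper-quartile scaling). The causes were not tested. No paired analysis was possible, since the KLS- side has 1 library and the sources used here give no pairing of libraries.

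The KLS- side has 1 library, so that no spread of progenitors was measured, and a gene of 1 kb needed 0.126 to 0.160 RPKM for 3 reads. Age, sex and late neutrophil transcripts move together in LT-HSC replicate 2 and cannot be told apart.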
